A study of Mus musculus with 31 samples.

Results

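The carboxylesterases described here are Ces1d, Ces1f and Ces1g of the Ces1 family and Ces2a, Ces2b, Ces2c and Ces2e of the Ces2 family, measured in the distal colon of mice. They were chosen by the gene name that the array files give to each probe. Each of the 7 genes had 1 probe, so they are 7 of the 56605 probes of the array. All 7 passed the filter on dim probes, among 42787 probes kept, and are 7 of the 19797 genes tested. Every result below is a level or a difference on the log2 scale, where a level of 0 is the 75th percentile of the signals of that array.

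Carboxylesterases are serine hydrolases of the endoplasmic reticulum that cut ester and amide bonds in drugs, food compounds and neutral lipids. Enzymes of the Ces2 family are the main carboxylesterases of the absorptive epithelium of the gut, where they activate or inactivate ester drugs that pass through it. Enzymes of the Ces1 family are best known from liver and fat, where Ces1d and Ces1g act on stored lipids and lipoproteins. Posterior Hox genes, which encode homeodomain transcription factors, mark the distal end of the gut tube, so that their level carries information on position along the intestine.

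All mice were of the BALB/c strain, a few weeks old at acclimatisation, and all of them received azoxymethane (AOM), a colon carcinogen, followed by dextran sulphate sodium (DSS), which injures the colon epithelium. CRC mice were given water by gavage, and CRC + E171 mice were given 5 mg/kg bw/day of E171, food-grade titanium dioxide, by gavage for 2, 7, 14 or 21 days. Each of the 8 groups held 4 arrays of 1 mouse each, from 2 males and 2 females. In CRC at 21 days there were 3, from 1 male and 2 females. No mouse without AOM and DSS was analysed here, so the levels have no healthy colon beside them, and the samples were pieces of whole tissue.

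The array annotation placed the 7 probes on chromosome 8 of the mm9 build, in a pair of clusters of 60-base probes. The Ces1 probes lay on the minus strand at chr8:95698949-95699008 (Ces1d), chr8:95780225-95780284 (Ces1f) and chr8:95826722-95826781 (Ces1g). The Ces2 probes lay on the plus strand at chr8:107263207-107263266 (Ces2a), chr8:107362421-107362480 (Ces2b), chr8:107378258-107378317 (Ces2c) and chr8:107458508-107458567 (Ces2e). Carboxylesterase genes are near copies of each other, and how far a probe binds the transcript of another member cannot be read from the signals. The probes of Ces2b and Ces2c shared a run of 24 bases, shown because these genes had nearly the same pattern over the arrays, while no other pair of member probes shared a run of over 9 bases. The accession of the Ces2c probe also belongs to the pseudogene Ces2d-ps in the RefSeq table. The 30 bases around the shared run are given with the run in capitals, from base 29 of the Ces2b probe and from base 3 of the Ces2c probe.
Ces2b probe: attTGTCACCTCAGTCTTTGAGCTTTCctg
Ces2c probe: atcTGTCACCTCAGTCTTTGAGCTTTCatg

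The RefSeq promoter table (GRCm38.p6) matched 4 of the 7 members, namely Ces1g, Ces2a, Ces2c and Ces2e. The 250 bases before the start are shown because the Ces2 members moved together over the 31 arrays (Pearson's r from 0.914 to 0.995). Over the 25 arrays left without those that stood apart, described below, r ranged from 0.26 to 0.98. Runs of 10 or more bases that also occur in another of these Ces2 promoters are in capitals. The windows are chr8:104733753-104734002 for Ces2a, chr8:104846818-104847067 for Ces2c and chr8:104926010-104926259 for Ces2e, all on the plus strand.
Ces2a promoter: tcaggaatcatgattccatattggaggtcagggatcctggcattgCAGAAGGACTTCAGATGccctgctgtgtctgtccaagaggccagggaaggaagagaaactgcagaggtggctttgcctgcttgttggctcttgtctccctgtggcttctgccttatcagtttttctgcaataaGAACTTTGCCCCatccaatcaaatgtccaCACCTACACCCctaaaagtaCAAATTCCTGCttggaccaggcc
Ces2c promoter: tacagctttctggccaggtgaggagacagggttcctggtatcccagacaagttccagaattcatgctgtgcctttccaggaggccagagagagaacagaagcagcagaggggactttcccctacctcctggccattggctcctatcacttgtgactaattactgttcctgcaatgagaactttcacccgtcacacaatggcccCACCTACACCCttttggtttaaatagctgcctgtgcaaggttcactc
Ces2e promoter: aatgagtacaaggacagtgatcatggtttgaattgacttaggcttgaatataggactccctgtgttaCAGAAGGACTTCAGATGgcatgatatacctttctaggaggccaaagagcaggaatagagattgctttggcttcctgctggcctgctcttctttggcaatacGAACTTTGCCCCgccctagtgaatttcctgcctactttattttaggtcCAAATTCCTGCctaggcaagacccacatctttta

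The longest run shared by the Ces2a and Ces2e promoters was CAGAAGGACTTCAGATG, 17 bases long, which began 205 bases before the start of Ces2a and 183 bases before that of Ces2e. It occurred in 2 of the 32851 promoters of the table, which are those of Ces2a and Ces2e themselves. Ces2a and Ces2c shared CACCTACACCC, which 8 promoters held with these included, and Ces2c and Ces2e shared no run of over 9 bases. Motifs were searched by their letters on both strands, of which 4 are given here: CAAAGTNCA for HNF4 (held by 1.19% of all promoters of this length), TTTATNG for CDX factors (9.81%), AGATAA for GATA factors (9.99%) and TATAAA for a TATA box (12.4%). None of these 4 occurred in the 3 Ces2 windows. The Ces1g promoter, chr8:93337210-93337459 on the minus strand, held the CDX letters at 2 places and the GATA and TATA box letters once each, in capitals below, with the TATA box match inside a CDX match.
Ces1g promoter: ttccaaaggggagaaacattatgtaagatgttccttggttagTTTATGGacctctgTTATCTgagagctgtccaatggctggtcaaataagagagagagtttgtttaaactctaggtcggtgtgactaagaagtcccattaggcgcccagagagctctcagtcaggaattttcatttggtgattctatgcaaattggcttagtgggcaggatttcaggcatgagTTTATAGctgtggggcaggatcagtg

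Between 67.4 and 78.9% of spots stood well clear of background on each array, and precision is limited by how few arrays there were. The array labelled male 2 of CRC 14 days carried a female level of Xist, and sexes are given here as labelled. A pair of sets of 3 arrays stood apart from the other 25 arrays in marker genes, and both bear on every result below. The posterior Hox score of an array is the mean over Hoxa13, Hoxb13, Hoxd10, Hoxd11, Hoxd12 and Hoxd13 of the level minus the gene's mean over the 31 arrays. It was -5.13 on CRC + E171 7 days female 2, -4.35 on CRC + E171 14 days female 1 and -4.96 on CRC + E171 14 days female 2, against -1.08 to 2.01 on the other 28 arrays, so these 3 arrays go against the high posterior Hox level of a distal colon. Counting every array over 1 log2 unit under the median score of 0.33 would give 9 low arrays, of which these 3 lay far below the rest. Scores of 10 surface colonocyte markers, built in the same way, were -5.21 on CRC 7 days male 1, -3.50 on CRC 7 days male 2 and -2.59 on CRC + E171 14 days male 2, against -0.22 to 1.12 elsewhere. The neutrophil scores of these 3 arrays were 5.05, 5.64 and 3.71, against at most 1.46 on the others. The limits that set these arrays apart were chosen after the values had been seen, so they describe arrays and are not groups of the study.

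The 4 Ces2 genes had steady levels in most groups and wide ones where the arrays that stood apart lay. Ces2a, which hydrolyses ester drugs and acylglycerols, had its lowest group mean in CRC at 7 days (-1.74 ± 2.56, SD, n = 4) and its highest in CRC + E171 at 14 days (1.20 ± 3.15, SD, n = 4). Ces2b ranged from 0.070 ± 3.75 (SD, n = 4) in CRC at 7 days to 3.52 ± 0.18 (SD, n = 4) in CRC + E171 at 21 days. Ces2c, a drug and triacylglycerol hydrolase of the intestine, ranged between the same groups from 0.62 ± 4.04 (SD, n = 4) to 4.26 ± 0.24 (SD, n = 4). CRC at 7 days was thus the lowest group for these 3 genes, with the largest spread of all groups for Ces2b and Ces2c. Ces2e had its lowest mean there too (0.68 ± 3.06, SD, n = 4) and its highest in CRC + E171 at 7 days (3.85 ± 0.78, SD, n = 4). When the 8 groups were ordered by mean, no neighbours in the order differed by more than the larger of their SDs for Ces2b, Ces2c and Ces2e, and 1 of 7 pairs of neighbours did for Ces2a (CRC at 14 days, -0.11 ± 0.13, and CRC + E171 at 21 days, 0.49 ± 0.32; SD, n = 4 each). Probe brightness differs between probes, so levels are compared only within a gene.

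**Figure D1:**
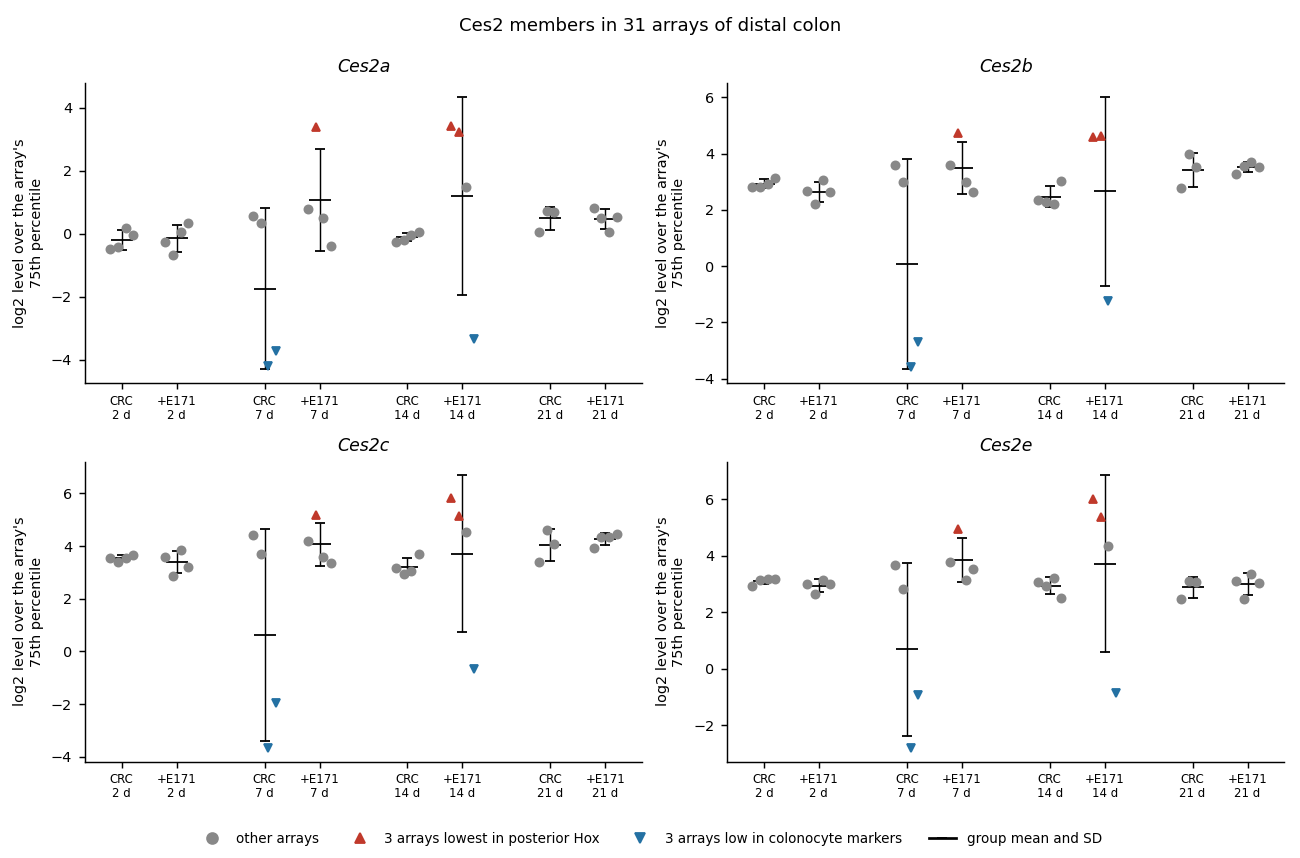
Level of each Ces2 gene on each array (log2 over the 75th percentile of the array, y axis) in the 8 groups (x axis), with the group mean and SD as bars. The 3 arrays lowest in posterior Hox genes lie above and the 3 arrays low in colonocyte markers below all other arrays, and CRC at 7 days and CRC + E171 at 14 days hold the widest spreads, with SDs of up to 4.04 and 3.36.

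The 3 Ces1 genes had their highest mean in CRC + E171 at 14 days and their lowest in CRC + E171 at 2 days. Ces1d, a lipid droplet associated hydrolase of liver and fat, ranged from -0.93 ± 0.41 to 1.85 ± 1.84 (SD, n = 4 each). Ces1f, its close relative, ranged from -2.95 ± 0.72 to 1.15 ± 2.999 (SD, n = 4 each). Ces1g, a carboxylesterase of the liver, ranged from -4.89 ± 0.56 to 0.16 ± 3.88 (SD, n = 4 each). The step from the lowest group to the next was larger than the larger SD for Ces1d and Ces1g, and no other neighbours in the order differed by more than their spread for the 3 genes. Over single arrays Ces1f covered 7.67 log2 units (a 204-fold range) and Ces1d 4.74 (26.7-fold). The Ces1g spot was well above background on 30 of the 31 arrays. The array on which it was not, CRC + E171 2 days female 2, holds its lowest signal, so no range is given for Ces1g, and no spot of a member was saturated.

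**Figure D2:**
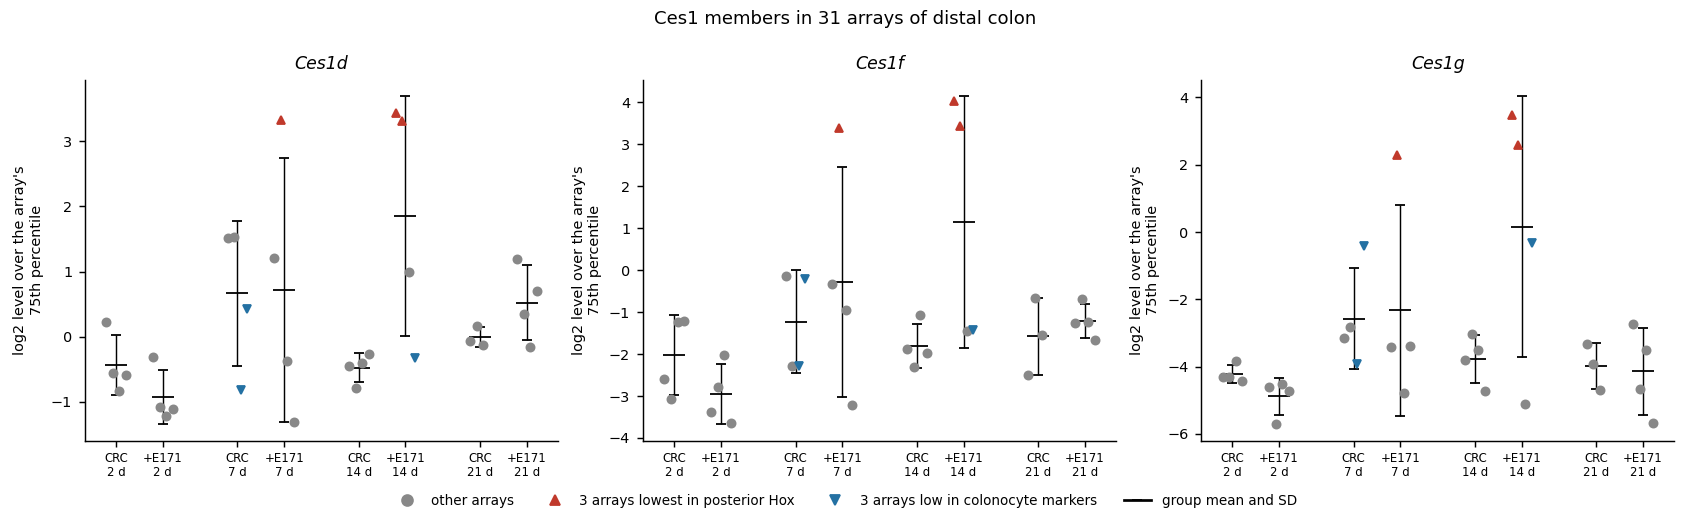
Level of each Ces1 gene on each array (log2 over the 75th percentile of the array, y axis) in the 8 groups (x axis), with the group mean and SD as bars. For each gene the 3 arrays lowest in posterior Hox genes are the highest of all 31 arrays, between 2.28 and 4.04, and 2 of them lie in CRC + E171 at 14 days.

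On the 3 arrays lowest in posterior Hox genes every member was higher than on any other array. Ces1d was 3.33, 3.44 and 3.32 on CRC + E171 7 days female 2, 14 days female 1 and 14 days female 2, against -1.31 to 1.53 on the 25 arrays of neither set. Ces1f was 3.38, 4.04 and 3.45 on the same arrays, against -3.63 to -0.14. Ces1g was 2.28, 3.49 and 2.598, against -5.71 to -2.73. All 3 genes thus lay well clear of the 25 arrays. Ces2a was 3.38, 3.42 and 3.24, against -0.66 to 1.499, and Ces2e was 4.96, 6.02 and 5.36, against 2.45 to 4.35. Ces2b was 4.73, 4.58 and 4.62, against 2.20 to 3.97, and Ces2c was 5.16, 5.83 and 5.15, against 2.88 to 4.62. The medians of the set and of the 25 arrays lay apart by 6.89 log2 units for Ces1g, 5.11 for Ces1f, 3.60 for Ces1d, 3.31 for Ces2a, 2.27 for Ces2e, 1.62 for Ces2b and 1.49 for Ces2c. All 7 members lay above the 25 arrays on these 3 arrays, as did 3.22% of all genes tested. The 3 highest arrays of a gene were these 3 for 7 of 7 members, also under quantile normalization and in the authors' values, and for 6 of 7 after normexp background correction.

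Other genes of the gut stood apart on the same arrays. Of the 6 posterior Hox genes, which chose the arrays, Hoxb13 was -1.74 to -8.40 there and 4.40 to 6.51 on the 25 arrays. Of 16 genes for lipid handling in absorptive cells, 4 lay above the 25 arrays (Fabp2, Lipe, Mgll and Mogat2) and 0 below, with the fatty acid binding protein gene Fabp2 at 6.44 to 7.15 against 0.62 to 3.68. Among 9 markers of small intestinal absorptive cells, 4 lay above, namely Alpi, Mep1a, Sis and Slc10a2, the last 2 the genes of sucrase-isomaltase and of the ileal bile acid transporter. The mean score of that list was 1.41, 3.46 and 1.51 on the 3 arrays and -2.59 to 0.56 on the other 28. Of 13 transcription factor genes Cdx2, Nr1h4 and Ppara lay above. All samples are labelled colon, and where along the gut the pieces of these 3 mice were taken is not settled by the data used here, so their member levels may not stand for distal colon. The part of position along the gut in the levels of the members was not tested. Within the 28 other arrays no member was related to the posterior Hox score after adjustment over 7 relations (Pearson's r from -0.20 to 0.35, lowest adjusted permutation p = 0.368, and lowest adjusted p of Spearman's rho 0.283). For Ces2a r was 0.35 (permutation p = 0.0710) and rho 0.39 (permutation p = 0.0404), and without the 2 arrays farthest from the median score r was 0.054.

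**Figure D3:**
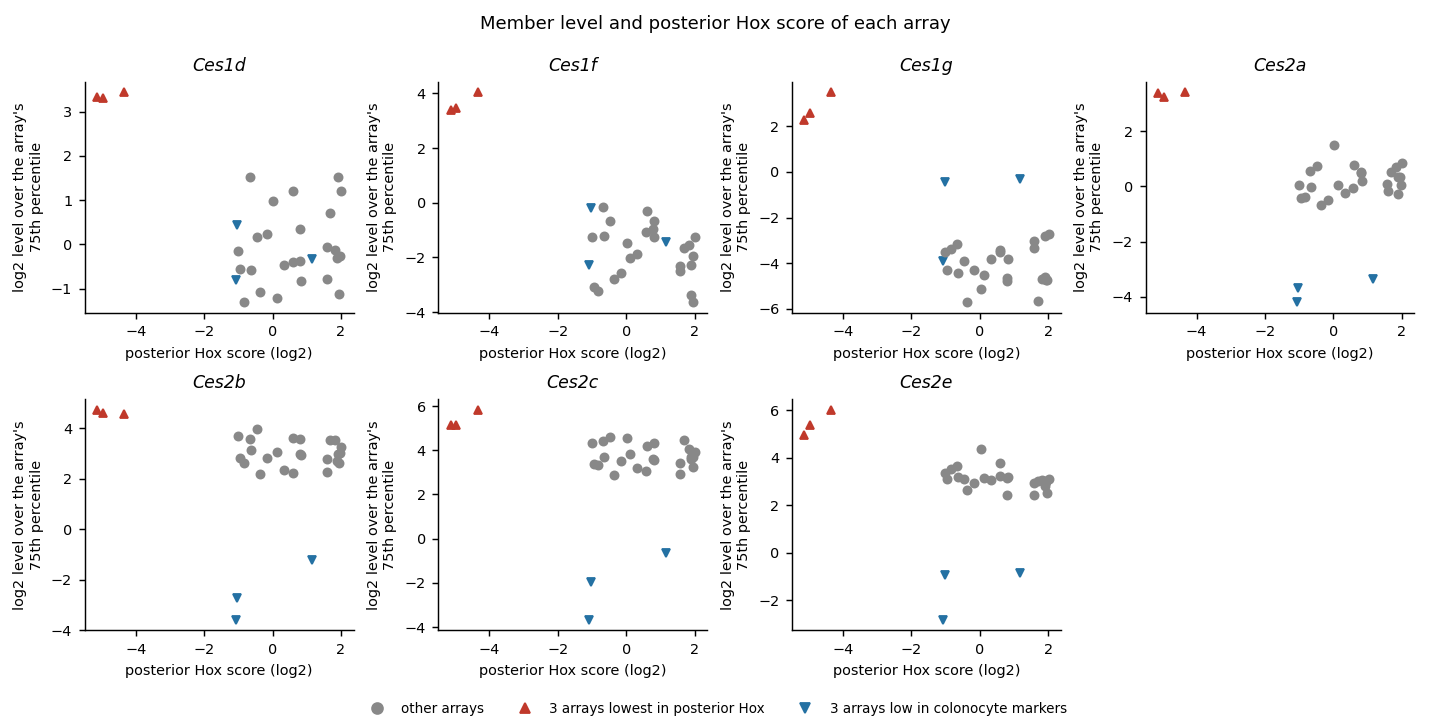
Level of each member (log2 over the 75th percentile of the array, y axis) against the posterior Hox score of the array (log2, x axis), 1 point per array. The 3 arrays with scores from -5.13 to -4.35 hold the highest level of every member, and the 28 arrays with scores from -1.08 to 2.01 show no such order.

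On the 3 arrays low in colonocyte markers the Ces2 genes were lower than on any other array, and the Ces1 genes were not. Ces2a was -4.20, -3.70 and -3.34 on CRC 7 days male 1, CRC 7 days male 2 and CRC + E171 14 days male 2. Ces2b was -3.59, -2.72 and -1.23, and Ces2c was -3.67, -1.96 and -0.67. Ces2e was -2.81, -0.93 and -0.85. For each of these genes the 3 values lay below all of the 25 arrays of neither set, which was so for 6.90% of all genes tested. The median of the set minus that of the 25 arrays was -5.71 for Ces2b, -5.64 for Ces2c, -4.03 for Ces2e and -3.77 for Ces2a. Ces1d was -0.81, 0.43 and -0.33 on the same arrays, and Ces1f was -2.28, -0.20 and -1.42, all inside the range of the 25 arrays. Ces1g was -3.91 on CRC 7 days male 1, inside that range, and -0.42 and -0.33 on the others, above it.

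The same 3 arrays were low in 8 of the 10 surface colonocyte markers, which chose them, and in 7 of 8 goblet cell genes. Aqp8, the colonocyte water channel, was -3.66 to -0.39 there and 4.95 to 6.95 on the 25 arrays. Of 13 transcription factor genes 7 lay below the 25 arrays, among them Cdx1, Hnf4a, Hnf4g, Nr1h4 and Nr1i2. The last, the pregnane X receptor that switches on drug metabolism genes, was at -6.49 to -1.59 there against -0.61 to 0.77. Of 7 neutrophil genes 6 lay above. The squamous epithelium score was 6.13 on CRC 7 days male 1 and 4.19 on CRC + E171 14 days male 2, and the pancreatic acinar score was 8.89 on CRC 7 days male 2. The 25 arrays reached 4.36 for squamous epithelium and 10.8 for acinar cells. Only the 6.13 of CRC 7 days male 1 lay above them, so neither score sets the 3 arrays apart as a set. Of 8 pan-epithelial genes 3 lay below the 25 arrays on this set (Cdh1, Epcam and Vil1). The pan-epithelial score was -3.38 on CRC 7 days male 1, -1.46 on CRC 7 days male 2 and -0.28 on CRC + E171 14 days male 2. On the 25 arrays it was -0.049 to 0.50. Fewer epithelial cells in the piece and less Ces2 RNA per cell cannot be told apart in whole tissue.

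**Figure D4:**
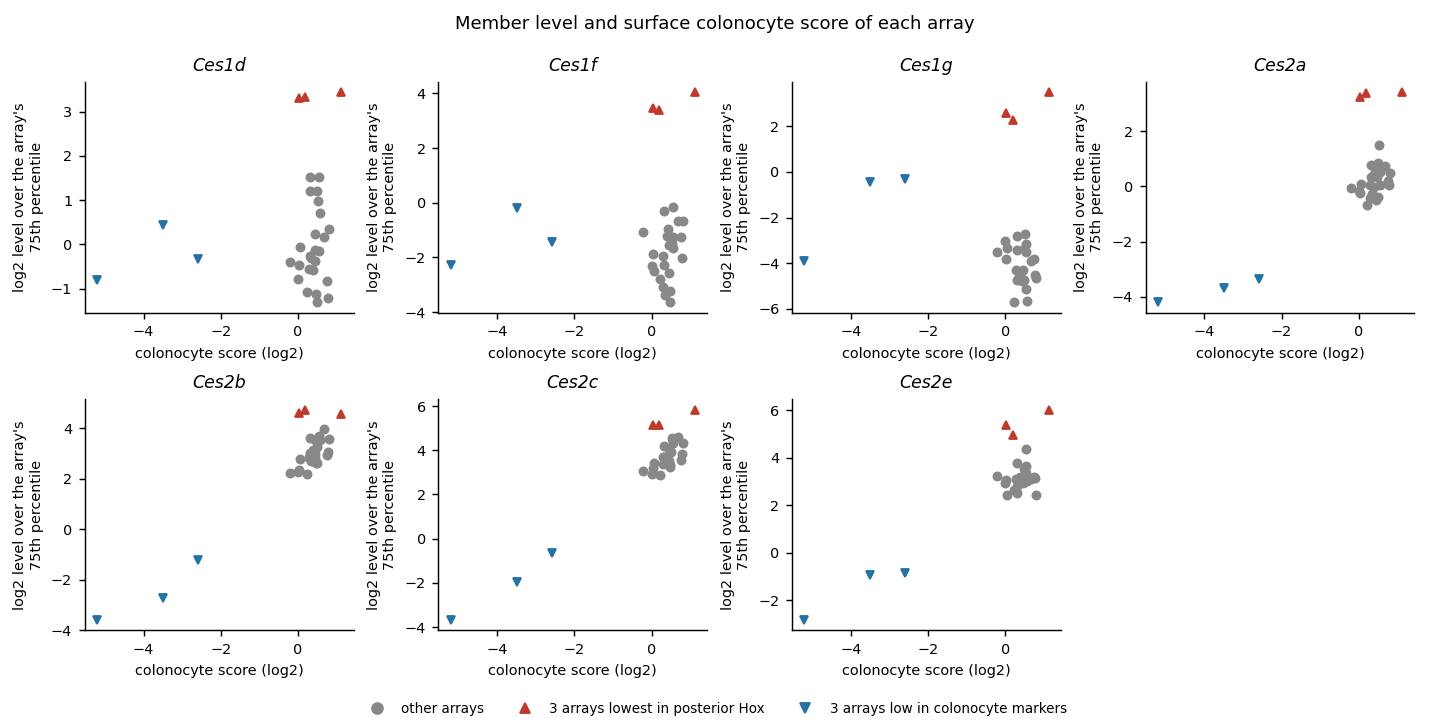
Level of each member (log2 over the 75th percentile of the array, y axis) against the surface colonocyte score of the array (log2, x axis), 1 point per array. The 3 arrays with scores of -5.21, -3.50 and -2.59 hold the lowest Ces2 levels, while the Ces1 levels of these arrays are not the lowest.

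After 7 days of exposure the 4 Ces2 genes passed the DEG thresholds used here for up-regulated genes (a linear fold change of at least 1.5 and an unadjusted p under 0.05), and the 3 Ces1 genes did not. By these thresholds 6.88% of all genes tested were up-regulated and 5.53% down-regulated on that day. These thresholds are wider than the paper's wording, which puts the fold change limit on the log2 scale. With a log2 fold change over 1.5 the same 4 members passed, beside 1.89% of all genes up-regulated. After Benjamini-Hochberg adjustment over the 19797 genes in limma, 0 of the 7 members passed, as did 0% of all genes, with 4 members and 16.7% of all genes at an unadjusted p under 0.05. The values by array are in the order female 1, female 2, male 1 and male 2. Ces2a was 0.58, 0.34, -4.20 and -3.70 in CRC and 0.79, 3.38, 0.51 and -0.37 in CRC + E171, a difference of 2.82 (SE 1.08, adjusted p = 0.219). Ces2b was 3.59, 2.99, -3.59 and -2.72 in CRC and 3.60, 4.73, 2.99 and 2.62 in CRC + E171, a difference of 3.42 (SE 1.20, adjusted p = 0.206). The groups overlapped, since both CRC females lay inside the range of CRC + E171 for these genes. Ces2c was 4.40, 3.71, -3.67 and -1.96 in CRC and 4.17, 5.16, 3.59 and 3.34 in CRC + E171, a difference of 3.44 (SE 1.25, adjusted p = 0.209). Ces2e was 3.66, 2.81, -2.81 and -0.93 in CRC and 3.78, 4.96, 3.13 and 3.53 in CRC + E171, a difference of 3.17 (SE 1.10, adjusted p = 0.202). For Ces2e, too, CRC female 1 lay inside the range of CRC + E171. Over the 4 genes the exact two-sided permutation p ranged from 0.0857 to 0.257, where 4 arrays against 4 allow no p under 0.0286.

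The Ces2 differences at 7 days depended on the CRC males and on array weights, and the call also on which groups gave the estimate of the spread. By the DEG thresholds, 0 of the 7 members passed without CRC male 1 (2.66% of all genes higher) and 1, Ces2e, passed without CRC male 2 (4.21%). With array weights 0 members passed (1.79% of all genes higher), and Ces2a, Ces2b, Ces2c and Ces2e differed by 0.69, 0.63, 0.49 and 0.92. With only the 2 groups of the day in the fit 0 passed (2.61%), at the same differences of 2.82 (Ces2a) to 3.44 (Ces2c), with SEs of 1.32 (Ces2a) to 1.80 (Ces2c) in place of 1.08 to 1.25. Both CRC males of that day are among the 3 arrays low in colonocyte markers. Without these 3 arrays the difference was 0.62 for Ces2a, 0.19 for Ces2b, 0.0096 for Ces2c and 0.62 for Ces2e, and 0 of the 7 members passed the DEG thresholds. Without the 3 arrays lowest in posterior Hox genes it was 2.05 for Ces2a, 3.001 for Ces2b, 3.08 for Ces2c and 2.80 for Ces2e, and all 4 passed them, as did 6.22% of all genes. Among the males the CRC + E171 mean was higher by 4.02 (Ces2a) to 6.28 (Ces2c) log2 units, and among the females by 0.61 (Ces2c) to 1.62 (Ces2a), with 2 arrays against 2 in each sex. Of these females CRC + E171 female 2 is among the 3 arrays lowest in posterior Hox genes. CRC + E171 female 1 had 0.79 for Ces2a and 4.17 for Ces2c, against 0.58 and 0.34, and 4.40 and 3.71, in the CRC females. Without both sets of 3 arrays the differences of Ces2a, Ces2b and Ces2c at 7 days were below 0, and that of Ces2e was not. With CRC female 1 left out, the highest CRC array for all 4 genes, 3 of them passed the adjusted threshold in limma (Ces2b, Ces2c and Ces2e, with differences of 4.59, 4.70 and 4.16), as did 6.07% of all genes. Over single arrays left out, the lowest differences came without CRC male 1, at 2.005 (Ces2a), 2.20 (Ces2b), 2.02 (Ces2c) and 2.01 (Ces2e). The Ces1 genes differed at 7 days by 0.049 (Ces1d), 0.95 (Ces1f) and 0.25 (Ces1g) with SEs of 0.76, 1.10 and 1.34, and by -0.82, -0.27 and -1.29 without the 3 arrays lowest in posterior Hox genes.

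After 14 days of exposure the 3 Ces1 genes passed the DEG thresholds for up-regulated genes and the 4 Ces2 genes did not, beside 3.29% of all genes up-regulated and 3.06% down-regulated on that day. The same 3 members passed with a log2 fold change over 1.5, beside 0.707% of all genes. After adjustment in limma 0 of the 7 members and 0% of all genes passed, with 3 members and 8.05% of all genes at an unadjusted p under 0.05. Ces1d was -0.46, -0.78, -0.40 and -0.27 in CRC and 3.44, 3.32, 0.99 and -0.33 in CRC + E171, a difference of 2.33 (SE 0.76, adjusted p = 0.524). Ces1f was -1.87, -2.31, -1.07 and -1.96 in CRC and 4.04, 3.45, -1.45 and -1.42 in CRC + E171, a difference of 2.96 (SE 1.10, adjusted p = 0.533). In both genes the CRC + E171 females were far above CRC, and at least 1 CRC + E171 male lay inside its range. Ces1g was -3.80, -3.04, -3.51 and -4.73 in CRC and 3.49, 2.598, -5.12 and -0.33 in CRC + E171, a difference of 3.93 (SE 1.34, adjusted p = 0.524). CRC + E171 male 1 was the lowest Ces1g value of the 8 arrays, and CRC + E171 male 2 the lowest of each Ces2 gene. The exact permutation p of the 3 genes ranged from 0.0571 to 0.143.

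The Ces1 difference at 14 days rested on both CRC + E171 females, which are among the 3 arrays lowest in posterior Hox genes. Without those 3 arrays it was 0.81 for Ces1d, 0.37 for Ces1f and 1.04 for Ces1g, none of which passed the DEG thresholds. The Ces2 genes had mixed arrays in CRC + E171 at 14 days, with the females high and male 2 low. Their differences were 1.31 (Ces2a), 0.19 (Ces2b, with 3 CRC + E171 arrays, since 1 spot was marked as an outlier), 0.50 (Ces2c) and 0.79 (Ces2e) with SEs of 1.08 to 1.29. Without the arrays lowest in posterior Hox genes the differences were -0.82 (Ces2a), -1.28 (Ces2c) and -1.18 (Ces2e), from CRC + E171 male 1, above all CRC arrays for these genes, and male 2, which is low in colonocyte markers and below them. For Ces2b only male 2 was left, so its difference of -3.69 is the value of 1 array against CRC. Without the 3 arrays low in colonocyte markers the differences were 2.82 (Ces2a), 2.13 (Ces2b), 1.96 (Ces2c), 2.32 (Ces2e) and 3.06 (Ces1d), with adjusted p from 0.00992 to 0.0353 in limma, so that these 5 members passed, as did 2.02% of all genes. With both sets left out only CRC + E171 male 1 remained of its group on that day, so the difference rests on 1 array. That array lay above all CRC arrays for Ces1d (0.99), Ces2a (1.499), Ces2c (4.55) and Ces2e (4.35). For Ces1f it was inside their range (-1.45), for Ces1g below it (-5.12), and for Ces2b it had no value.

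**Figure D5:**
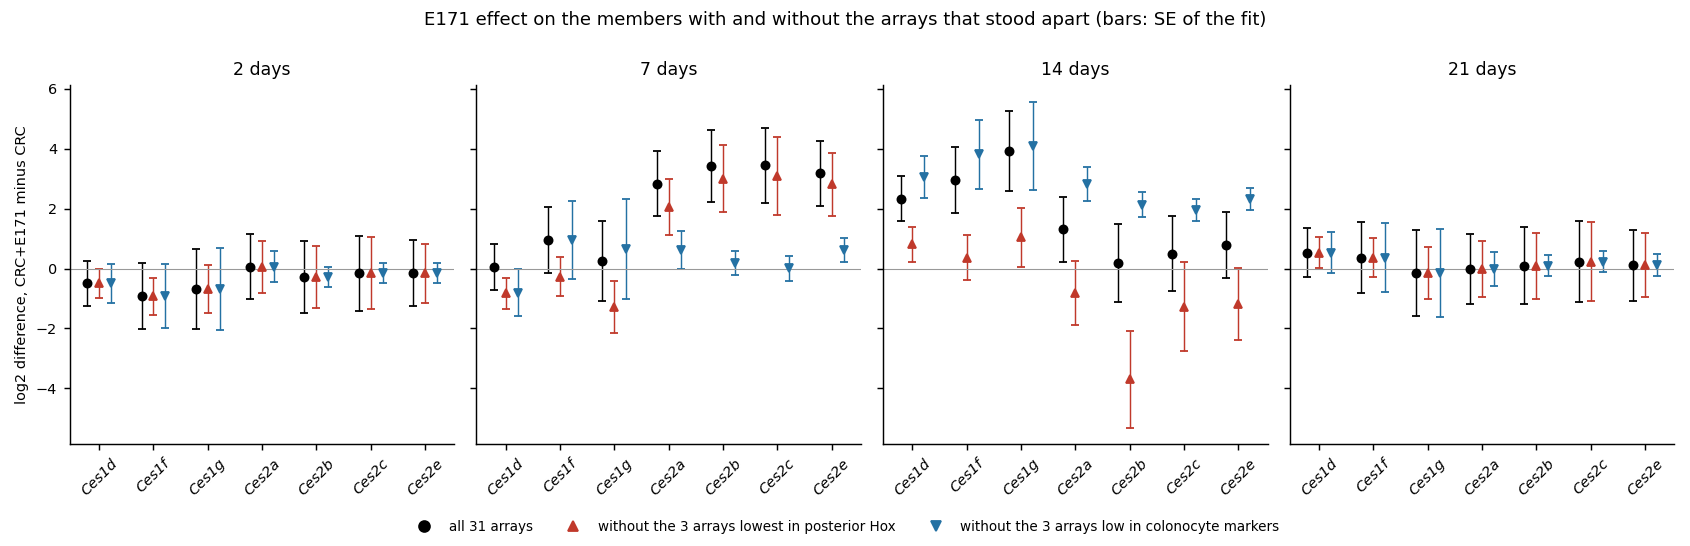
Difference of each member between CRC + E171 and CRC (log2, y axis) on each of the 4 days, from limma fits on all 31 arrays and without each set of 3 arrays, with the SE of the fit as bars. At 7 days the Ces2 differences of 2.82 to 3.44 shrink to between 0.0096 (Ces2c) and 0.62 (Ces2e) without the arrays low in colonocyte markers, and at 14 days the Ces1 differences of 2.33 to 3.93 shrink to between 0.37 and 1.04 without those lowest in posterior Hox genes.

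After 2 and 21 days of exposure no member passed the DEG thresholds, beside 1.59% and 0.879% of all genes up-regulated and 0.172% and 1.80% down-regulated. After adjustment in limma 0 of 7 members passed on either day, with 0 at an unadjusted p under 0.05, beside 2.78% and 5.82% of all genes. At 2 days the Ces1g values were -4.30, -4.30, -3.84 and -4.44 in CRC and -4.60, -5.71, -4.51 and -4.73 in CRC + E171. Each CRC + E171 array was lower than each CRC array, as it was for 0.955% of all genes. The lowest of them, -5.71 on CRC + E171 female 2, is the spot not well above background. The Ces1g difference was -0.67, and -0.40 without that array (SE 1.34 with it, adjusted p = 0.9998 from limma), with an exact permutation p of 0.0286, the smallest that 4 arrays against 4 allow, from 28 such tests of 7 members on 4 days. At 21 days the differences lay between -0.15 (Ces1g) and 0.53 (Ces1d). Over the 2 days 6 of 14 differences were above 0, and the widest 95% interval was that of Ces1g at 21 days, from -3.13 to 2.82.

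Taken over the 4 days, every member was higher with E171 on average, but none passed the DEG thresholds, beside 0.606% of all genes up-regulated and 1.18% down-regulated. The mean difference ran from 0.61 for Ces1d (SE 0.39) to 1.04 for Ces2a (SE 0.55), with adjusted p from 0.517 to 0.643 in limma, where 0.00505% of all genes passed. Without the 3 arrays lowest in posterior Hox genes it was 0.0061 for Ces1d and 0.32 for Ces2a, and below 0 for Ces1f (-0.12), Ces1g (-0.27) and Ces2b (-0.22). No slide held both groups of a day, so slide and group cannot be told apart on a single day, but the mean can be taken within slides, where it ran from 0.59 for Ces1d to 1.02 for Ces2a. By the DEG thresholds 0 members passed there, beside 0.530% of all genes up-regulated and 1.25% down-regulated, with 0 of 7 members past the adjusted threshold and 0% of all genes. On the scan day that held both groups of 7 days (2 arrays against 2) the Ces2 differences were 2.46 to 3.51, and the Ces1 differences 0.065, 0.57 and -0.56 (Ces1g, opposite in sign to that of all arrays). On that of 14 days the Ces1 differences were 1.92, 2.49 and 4.79. The Ces2 differences were there 0.095 (Ces2a), -0.59 (Ces2b), -0.88 (Ces2c) and -0.89 (Ces2e), the last 3 opposite in sign to those of all arrays. Whether the effect of E171 differed between days was tested directly, and 0 of the 7 members and 0% of all genes passed in limma (lowest adjusted p of a member 0.719).

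Between days, in the fit on all 31 arrays, 3 Ces2 genes were lower in CRC and 3 Ces1 genes higher in CRC + E171, by the DEG thresholds on either scale and not after adjustment. In CRC the Ces2 genes Ces2b, Ces2c and Ces2e passed the DEG thresholds as down-regulated at 7 days against 2 days, with differences of -2.85, -2.92 and -2.42 (0.37, 0.52 and 0.13 without the 3 arrays low in colonocyte markers), beside 6.13% of all genes and 7.33% up-regulated. No member passed in either direction at 14 days against 2 days, where 1.43% of all genes were up-regulated and 1.12% down-regulated, or at 21 days, where these were 2.09% and 1.49% (with 5.45% at an unadjusted p under 0.05). In CRC + E171 the Ces1 genes Ces1d, Ces1f and Ces1g were up-regulated at 14 days against 2 days by 2.78, 4.10 and 5.05, beside 2.75% of all genes (6.88% down-regulated), with adjusted p from 0.137 to 0.142 in limma. Without the 3 arrays lowest in posterior Hox genes these were 1.26, 1.52 and 2.16 (SEs 0.59, 0.75 and 0.98). The Ces2 genes were then -0.79 (Ces2a) to -3.87 (Ces2b, from 1 CRC + E171 array). Without the 3 arrays low in colonocyte markers the Ces1 differences were 3.51, 4.96 and 5.21, and those of Ces2 1.79 (Ces2c) to 2.85 (Ces2a). There the adjusted p of the 7 members was 0.0130 to 0.0676 in limma, under 0.05 for all but Ces1g. At 7 days against 2 days in CRC + E171, 2 members (Ces1d, 1.64, and Ces1f, 2.68) passed the DEG thresholds, beside 0.450% of all genes (2.84% down-regulated). Without CRC + E171 7 days female 2, lowest in posterior Hox genes, these differences were 0.77 (SE 0.69) and 1.46 (SE 1.02). With all 3 arrays lowest in posterior Hox genes left out they were the same, with SEs of 0.52 and 0.66. Shares of all genes were not counted in the fits between days that left arrays out. At 21 days against 2 days 0 members passed the DEG thresholds in CRC + E171, beside 2.07% of all genes up-regulated and 5.37% down-regulated. In the test over the 4 days, 0 of 7 members passed after adjustment in CRC and 0 in CRC + E171 (0% of all genes in either), with 0 and 3 members and 9.93% and 14.6% of all genes at an unadjusted p under 0.05.

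The mean was higher in females than in males for 7 of 7 members, and 5 passed the DEG thresholds, beside 1.81% of all genes higher and 1.17% lower in females. With a log2 fold change over 1.5, 0 members passed, beside 0.172% of all genes higher in females. The difference was 1.20 for Ces1d (SE 0.31, adjusted p = 0.188 in limma), 1.23 for Ces2a, 1.42 for Ces2b, 1.38 for Ces2c and 1.20 for Ces2e, with SEs of 0.51 to 0.59 for the Ces2 genes. Ces1f (0.89) and Ces1g (1.32) did not pass, and 0 of 7 members passed the adjusted threshold, against 0.0556% of all genes. All 3 arrays lowest in posterior Hox genes were labelled female and all 3 arrays low in colonocyte markers were labelled male. Without both sets the Ces2 differences were -0.14 (Ces2a), -0.13 (Ces2b), -0.11 (Ces2c) and -0.11 (Ces2e), and the Ces1d difference was 0.51 (SE 0.21, adjusted p = 0.293). Without the array with the Xist level that goes against its label the Ces1d difference was 1.27 (adjusted p = 0.179).

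Few of the other esterase genes passed the DEG thresholds. Of 12 further carboxylesterase genes 7 were tested, and 1 was up-regulated at 7 days, Ces2f (2.57, SE 0.84, adjusted p = 0.197), beside a median difference of 0.52 over the 7 and -0.0089 over all genes, of which 6.88% were up-regulated and 5.53% down-regulated. Ces3a was down-regulated at 2 days (-1.996, adjusted p = 0.99984 in limma), beyond the log2 limit too, as were 0.172% of all genes by the DEG thresholds. Ces2f and Ces1e were also the ones of these that lay above the 25 arrays on the arrays lowest in posterior Hox genes and below them on the arrays low in colonocyte markers. At 14 days 0 of the 7 passed in either direction, with a median of 0.71 against 0.015 over all genes, of which 3.29% were up-regulated and 3.06% down-regulated. Of 10 esterases of other families 1 was down-regulated at 7 days (Cel, the pancreatic bile salt lipase, -4.79) and 1 up-regulated at 14 days (Bche, butyrylcholinesterase, 1.46, under the log2 limit). The acetylcholinesterase gene Ache was down-regulated at 21 days (-0.78, adjusted p = 0.848 in limma, under the log2 limit), as were 1.80% of all genes. Cel marks pancreatic acinar cells, whose score was high on 2 of the 4 CRC arrays of 7 days.

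Regulators of gut genes were up-regulated at 7 days in 8 of 13 cases by the DEG thresholds, in 5 with a log2 fold change over 1.5 and in 0 after adjustment, beside 6.88% of all genes up-regulated by the DEG thresholds on that day. Among them were Nr1i2 (2.59), Hnf4a (2.43), Hnf4g (1.32), the bile acid receptor Nr1h4 (1.41), Cdx1 (1.53) and Cdx2 (2.72), with a median of 1.32 over the 13. On the same day 7 of 10 surface colonocyte markers were up-regulated (6 with a log2 fold change over 1.5), with a median of 2.43, and so were 8 of 8 pan-epithelial (1) and 7 of 8 goblet cell genes (7). Other marker lists went the other way at 7 days, beside 5.53% of all genes down-regulated. Of 7 neutrophil genes 3 were down-regulated, with a median of -2.98 over the 7, of 8 macrophage genes 4, with a median of -0.69, and of 7 pancreatic acinar genes 3, with a median of -4.93. Both CRC males of 7 days are among the 3 arrays that low values of these 10 colonocyte markers chose, with scores of -5.21 and -3.50. On those 3 arrays 7 of 13 regulators and 7 of 8 goblet cell genes lay below the 25 arrays of neither set. Of 7 neutrophil genes 6 lay above them. The lists were not counted without these arrays, and the part of the listed cell types in the Ces2 difference was not tested. At 14 days 2 of the 13 regulators were up-regulated, Nr1h4 (1.21) and Ppara (1.68), of which Ppara passed with a log2 fold change over 1.5, with a median of 0.12 over the 13, beside 3.29% of all genes up-regulated and 3.06% down-regulated. Of the 9 genes of small intestinal absorptive cells 9 were higher with E171 on that day, with a median of 1.20, and 4 were up-regulated. Their part in the Ces1 difference was not tested. Of the 16 lipid handling genes 16 were higher with E171 at 14 days, with a median of 0.57, and 1 was up-regulated, Apob (3.34), which encodes the protein that packs dietary fat for export. Of the 6 posterior Hox genes 4 were down-regulated at 14 days, by -2.71 (Hoxa13) to -5.50 (Hoxb13). Both CRC + E171 females of that day are among the 3 arrays that low values of these 6 genes chose. Their posterior Hox scores were -4.35 and -4.96, against 0.025 and 1.17 on the CRC + E171 males. The small intestinal scores were 3.46 and 1.51 on the same females and 0.098 and -1.09 on the males.

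Among themselves the Ces2 genes went together over the 31 arrays, with Pearson's r from 0.914 to 0.995, while over the 25 arrays of neither set r ranged from 0.26 (Ces2b and Ces2e) to 0.98 (Ces2b and Ces2c). The Ces1 genes had r from 0.75 to 0.85 over the 31 arrays and from 0.20 to 0.53 over the 25. These values are descriptions, and the points share slides and the scaling of the array. The genes most like the mean of the 4 Ces2 genes over the 31 arrays, of 19735 genes, were Cyp2d26 (r = 0.969), Gcnt3 (0.968), Sult1d1 (0.960), Gm1123 (0.955) and Hsd3b3 (0.951). Those most like Ces1d were Amn (0.879) and Aldh1a1 (0.876), and those most like Ces1f were Amn (0.886) and Adra2a (0.879). For Ces1g they were Trak2 (0.888), Hoxd4 (0.881) and the neurotensin gene Nts (0.876). Both sets of arrays that stood apart weigh heavily in these values, as for Aldh1a1, which was 5.47 to 5.83 on the arrays lowest in posterior Hox genes and 1.63 to 2.81 on the 25 arrays.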

How the data were processed

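RNA of the distal colon was labelled with Cy3 and hybridised to 31 Agilent arrays by the authors, who extracted the spots with Feature Extraction 10.7.3.1. The deposited intensity is Agilent's processed signal, corrected for background within an array and not scaled between arrays. The authors also deposited log2 values of 42568 probes, used as an alternative. Their column medians were 9.43 to 9.67, and how they were centred and normalized is not given in the sources used here. Spots marked as outliers were left out, log2 signals were taken relative to the 75th percentile of their own array (1698 to 6485), and a probe was kept where in at least 1 group 60% of the arrays were well above background with a mean log2 signal of 4 or more. Probes were named from RefSeq (GRCm38.p6), by accession (32994), symbol (10224) or synonym (520), with 12867 left unnamed and out of the tests, and averaged per gene.

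One limma fit over the 8 groups (R 4.3.3, limma 3.58.1, statmod 1.5.0, and data.table in version 1.17.8) gave all comparisons, with p adjusted by Benjamini-Hochberg over 19797 genes, of which 56 lacked a value on some array. The fit was tested on simulated data. Slide (8) and scan day (3) came from the file headers. The named genes are the 7 members and the genes of each list that passed the DEG thresholds, of which some are not reported here. Members, lists and tests were chosen with earlier results of these data known.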

Additional observations from a re-analysis of the deposited data

Results flagged for a closer look

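The level of Ces1d on CRC + E171 2 days female 1 was -0.32, above the other 3 arrays of its group (-1.21 to -1.08), and its gap to the nearest of them was 0.853 of the range of the group. The level of Ces2b on CRC 14 days male 2 was 3.03, above the other 3 arrays of its group (2.22 to 2.34), with a gap of 0.851 of the range. The latter array is the one whose Xist level goes against its label. In all, 48 groups of 4 values were looked at in this way, of which chance alone would mark about 1 in 20.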

How the results depend on the processing

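Under other scalings, filters, probe choices, covariates and blocks, 82 of 84 values at 7 days, 83 of 84 at 14 days and 76 of 77 for sex kept their direction and their side of the adjusted threshold. So did 12 of 12 at 2 days (Ces1g alone), 22 of 24 at 21 days (Ces1d and Ces1g) and 22 of 22 for the mean over the days (Ces1d and Ces2a). No member was past that threshold in the main fit, so a difference that shrank without changing sign counts as kept. The Ces1g spot was well above background on 30 of 31 arrays. The cause of the changes below was not tested. Percentages in brackets are the shares of all genes past the DEG thresholds in the same fit, higher and lower, unless said to be adjusted.

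With sex as a covariate 2 members passed the DEG thresholds in the mean over the 4 days (0.839% and 1.25%), the Ces2b difference at 14 days was -0.047 and the Ces1g difference at 21 days 0.065. With the replicate block 1 member passed in that mean (0.864% and 1.42%), and the block changed no other call. Arrays of a day with the same sex and number had a median correlation of 0.155 (8 of 15 pairs over 0.1), and other pairs -0.036 (10 of 45), so not every pair met the limit and the numbers were not taken to pair the mice. With array weights, 2 members passed the adjusted threshold for change over days in CRC + E171 (5.08% adjusted). By the DEG thresholds 0 then passed at 7 days (1.79% and 2.45%), 5 at 14 days (5.85% and 7.46%), 2 in the mean (0.636% and 2.44%), 1 within slides (0.945% and 3%) and 1 between sexes (1.48% and 0.884%), with Ces1d at -0.90 and Ces1g at -0.24 at 7 days, Ces1g at 0.40 at 21 days and Ces1f at -0.069 between sexes. With only the 2 groups of a day in the fit, 1 passed at 2 days (2.34% and 0.515%) and 0 at 7 days (2.61% and 2.22%). After normexp with quantile normalization 5 arrays, not 9, lay over 1 log2 unit under the median posterior Hox score.

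The next settings were chosen after seeing the data. With a log2 fold change over 1.5 the count between sexes was 0, and the counts of the days, the mean and within slides were as with the linear limit. Without the 3 arrays lowest in posterior Hox genes 1 member passed the DEG thresholds at 14 days (Ces2b, lower, from 1 CRC + E171 array; 1.46% and 1.62%) and 1 between sexes (1.73% and 1.84%). Ces1d, Ces1f and Ces1g were then -0.82, -0.27 and -1.29 at 7 days, Ces2a, Ces2b, Ces2c and Ces2e -0.82, -3.69, -1.28 and -1.18 at 14 days, and Ces1f -0.12 between sexes. Without the 3 arrays low in colonocyte markers 5 members passed the adjusted threshold at 14 days (2.02% adjusted) and 2 for change over days in CRC + E171 (0.657% adjusted). By the DEG thresholds 0 passed at 7 days (1.23% and 1.44%), 7 at 14 days (6.75% and 7.35%), 2 in the mean (0.737% and 0.869%), 2 within slides (0.844% and 0.803%) and 2 between sexes (1.82% and 1.13%), and Ces1d was -0.81 at 7 days. Without both sets 1 passed at 7 days (Ces1d, lower; 1.16% and 1.60%), 1 in the mean (Ces1g, lower; 0.197% and 0.692%), 1 within slides (Ces1g, lower; 0.455% and 0.561%) and 0 between sexes (2.33% and 1.44%). At 7 days Ces1d, Ces1f and Ces1g were -1.68, -0.28 and -0.88 and Ces2a, Ces2b and Ces2c -0.15, -0.22 and -0.36. Ces1g was -1.35 at 14 days, from 1 CRC + E171 array that lay above all CRC arrays for Ces1d, Ces2a, Ces2c and Ces2e. Ces1d was -0.043 in the mean and -0.077 within slides. Between sexes Ces1f, Ces2a, Ces2b, Ces2c and Ces2e were -0.15, -0.14, -0.13, -0.11 and -0.11.

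Leaving out single arrays gave 0 to 3 members past the adjusted threshold at 7 days (3 without CRC 7 days female 1, beside 6.07% of all genes) and 0 to 1 for change over days in CRC + E171 (1 without CRC + E171 14 days male 1, beside 0.333%). By the DEG thresholds it gave 0 to 4 at 7 days (2.66 to 10.1% of all genes higher), 2 to 5 at 14 days (1.69 to 4.96%, with 5 members and 4.96% without CRC + E171 14 days male 2), 3 to 6 between sexes, with 1.54 to 2.13% of all genes (3 without that array or without CRC 7 days male 1), 0 to 5 in the mean (0.369 to 1.72%) and 0 to 4 within slides (0.288 to 1.70%). Without CRC + E171 14 days male 2 the mean had 5 and the mean within slides 4, and without CRC 7 days female 1 they had 3 and 4. At 7 days Ces1d ranged from -0.82 to 0.72, Ces1f from -0.27 to 1.93 and Ces1g from -1.29 to 1.06. The lows came without CRC + E171 7 days female 2. On that day Ces2a ranged from 2.005 to 3.60, Ces2b from 2.20 to 4.59, Ces2c from 2.02 to 4.70 and Ces2e from 2.01 to 4.16, the lows without CRC 7 days male 1 and the highs without CRC 7 days female 1. At 14 days Ces1g ranged from 2.82 to 5.69 (high without CRC + E171 14 days male 1), Ces2a from 0.57 to 2.82, Ces2b from -0.79 to 2.13, Ces2c from -0.21 to 1.96 and Ces2e from 0.026 to 2.32. The lows came without CRC + E171 14 days female 1, or female 2 for Ces2b, and the Ces2 highs without CRC + E171 14 days male 2. At 21 days Ces1g ranged from -0.62 to 0.35.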
